A study of Mus musculus with 10 samples.

Results

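The BAF complex is an ATP-dependent chromatin remodeler, and 10 genes for its subunits were examined here for chromatin accessibility as adult neural progenitors began to differentiate. They comprised 4 genes whose products belong to the complex of neural progenitors (Actl6a, Phf10, Dpf2 and Ss18), 4 genes whose products replace them in neurons (Actl6b, Dpf1, Dpf3 and Ss18l1) and the 2 alternative ATPases, Smarca2 and Smarca4. Every ATAC-seq peak whose summit lay in the body of one of these genes, or within 20 kb of it, was taken from each of the 10 deposited peak lists (GENCODE annotation, GRCm38). This gave 552 of 759157 peaks. Peaks that overlapped between libraries were merged into regions, and 85 of 137454 regions belonged to the 10 genes.

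Cultures of neural stem and progenitor cells (NSC/NPCs) from the subependymal zone (SEZ) of mice aged 10 weeks were compared in 2 states and 2 genotypes. Proliferating cells (PRO) were neurospheres kept in EGF (20 ng/ml) and FGF (10 ng/ml), harvested after 3 days in vitro (DIV) per the labels and the study's sequencing methods, while its results also speak of older spheres. Cells that were starting to differentiate (DIFF) had spent 2 days on Matrigel with FGF and then 24 h without mitogens in 2% serum, so substrate and serum changed together with mitogen withdrawal. Wild-type cells (WT) gave 3 PRO and 3 DIFF libraries. Mice lacking Cdkn1b, the gene of the cyclin-dependent kinase inhibitor p27 (p27KO, C57BL/6J background), gave 2 PRO and 2 DIFF libraries, and each library was made from 50000 cells. For the p27KO libraries 1 free-text label speaks of WT cells, which contradicts the titles and the genotype label. The donors of the cultures are not named, so the errors measure only the spread between these libraries.

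The lists held 57534 to 91801 peaks, and the library WT DIFF 3 stood apart from the other WT DIFF libraries with 88738 peaks against 61783 and 57534. The number of reads behind a list is unknown, so a missing peak means that none was called at that depth. The titles were checked at Cdkn1b, whose body held a peak in all 6 WT libraries and in 0 of the 4 from p27KO mice. Promoters of the Y-linked genes Ddx3y, Eif2s3y and Uty divided the libraries in the same way, 6 of 6 against 0 of 4, so genotype and sex chromosomes cannot be told apart in comparisons between genotypes. All 8 neural stem and progenitor marker promoters examined held a peak in every library. Between 4 and 6 of 6 neuronal, 2 and 3 of 4 oligodendrocyte, 1 of 4 microglial and 1 to 2 of 4 endothelial marker promoters did so in a library, while Mag, Csf1r, Cx3cr1, Itgam and Pecam1 had none in any.

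The BAF complex moves and evicts nucleosomes with the energy of ATP, which is hydrolysed by Smarca4 (Brg1) or Smarca2 (Brm). Around this core, interchangeable subunits are exchanged as neural progenitors leave the cell cycle. The actin-related protein Actl6a gives way to Actl6b, the PHD-finger proteins Phf10 and Dpf2 to Dpf1 and Dpf3, and Ss18 to its homologue Ss18l1 (Crest), a transcriptional coactivator in neurons. The exchange is known from changes in protein and RNA. Peak lists show only whether the DNA at these genes was open.

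The sequences below are those on which the results turn. The promoters of Actl6a and Actl6b are shown because they had the highest and the lowest accessibility of the 10 promoters. The stretches are those parts of the 250 bases before the RefSeq start sites (GRCm38.p6) that no annotated UTR touches, written 5′ to 3′ on the strand of the gene. They held none of the motifs searched.
Actl6a promoter (chr3:32708296-32708506, plus strand): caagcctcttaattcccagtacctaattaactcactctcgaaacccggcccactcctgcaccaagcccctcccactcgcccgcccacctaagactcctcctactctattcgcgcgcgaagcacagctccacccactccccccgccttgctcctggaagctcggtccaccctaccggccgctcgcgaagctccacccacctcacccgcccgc
Actl6b promoter (chr5:137553296-137553516, plus strand): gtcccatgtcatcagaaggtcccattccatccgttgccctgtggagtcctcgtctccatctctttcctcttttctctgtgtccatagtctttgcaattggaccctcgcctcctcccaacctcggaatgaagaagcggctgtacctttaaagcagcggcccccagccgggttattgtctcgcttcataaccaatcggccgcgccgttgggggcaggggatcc

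The remaining sequences are the 201 bases centred on the summits of 7 regions away from promoters that changed at DIFF, read from the plus strand of GRCm38. Distances are counted from the start of the gene in the direction of transcription. Capitals mark matches, on either strand, to AP-1 (TGAGTCA), SOX (ACAAAG), the E-box CAGCTG and the right-hand part (GGACAGC) of RE1, the element bound by the repressor REST.
Actl6b, −11.1 kb (chr5:137542281-137542481, plus strand): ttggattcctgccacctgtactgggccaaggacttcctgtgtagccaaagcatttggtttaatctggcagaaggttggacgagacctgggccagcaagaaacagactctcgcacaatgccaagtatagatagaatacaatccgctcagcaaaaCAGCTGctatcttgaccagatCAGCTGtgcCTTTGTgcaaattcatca
Ss18l1, −9.37 kb (chr2:180033042-180033242, plus strand): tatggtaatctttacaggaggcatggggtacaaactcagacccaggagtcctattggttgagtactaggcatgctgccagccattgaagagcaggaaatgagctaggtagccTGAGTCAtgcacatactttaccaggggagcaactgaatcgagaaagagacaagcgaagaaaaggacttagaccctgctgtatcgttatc
Dpf3, 185 kb (chr12:83302923-83303123, plus strand): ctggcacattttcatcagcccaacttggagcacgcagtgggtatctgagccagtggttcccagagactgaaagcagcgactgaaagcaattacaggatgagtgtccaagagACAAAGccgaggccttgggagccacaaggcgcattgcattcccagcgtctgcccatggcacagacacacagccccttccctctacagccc
Dpf3, 210 kb (chr12:83277848-83278048, plus strand): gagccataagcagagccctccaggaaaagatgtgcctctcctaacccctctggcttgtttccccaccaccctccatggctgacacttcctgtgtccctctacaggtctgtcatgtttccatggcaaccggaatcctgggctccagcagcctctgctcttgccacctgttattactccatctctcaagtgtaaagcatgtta
Dpf3, 293 kb (chr12:83194962-83195162, plus strand): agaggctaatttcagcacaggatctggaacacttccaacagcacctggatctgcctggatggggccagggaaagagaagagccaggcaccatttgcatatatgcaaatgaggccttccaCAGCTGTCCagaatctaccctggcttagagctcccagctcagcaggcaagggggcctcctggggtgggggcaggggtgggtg
Smarca2, 25.8 kb (chr19:26630741-26630941, plus strand): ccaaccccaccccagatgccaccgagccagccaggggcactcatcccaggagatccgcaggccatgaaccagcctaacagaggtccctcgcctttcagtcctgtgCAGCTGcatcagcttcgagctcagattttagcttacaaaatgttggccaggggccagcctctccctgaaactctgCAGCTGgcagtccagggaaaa
Smarca2, 129 kb (chr19:26733704-26733904, plus strand): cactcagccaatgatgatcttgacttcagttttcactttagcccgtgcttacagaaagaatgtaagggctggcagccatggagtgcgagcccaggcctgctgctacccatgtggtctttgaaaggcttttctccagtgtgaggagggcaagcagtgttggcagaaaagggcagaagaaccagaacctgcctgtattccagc

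The region at −11.1 kb of Actl6b held 1 SOX and 2 E-box matches, and the region at −9.37 kb of Ss18l1 held an AP-1 match. Among the Dpf3 regions, the one at 185 kb held a SOX match, and the one at 293 kb held an E-box whose letters ran into the right-hand part of RE1. The Smarca2 region at 25.8 kb held 2 E-box matches. The regions at 210 kb of Dpf3 and at 129 kb of Smarca2 held none. These letters are common, since 20.3% of the same-sized windows at all tested regions held the SOX, 21.5% the E-box, 6.08% the AP-1 and 5.89% the right-hand RE1 letters. The left-hand part of RE1 (TTCAGCACC), E2F (TTTGGCGC), ETS (CCGGAAGT), NRF1 (GCGCA followed by its reverse complement) and NFI (TTGGC, 5 bases of any kind and its reverse complement) were found in 0 of the 28 windows at named regions outside chromosome 18. Of all windows, 0.427%, 0.309%, 1.48%, 0.366% and 0.116% held them. In the 250 bases before the start sites, 9 of the 10 genes had a RefSeq entry, and the only match was an E-box in Phf10, against 13.0% of all 32851 promoters. The window at the summit of the Actl6b promoter held the right-hand RE1 letters, and it is not printed because it reaches into the UTR.

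The first question was whether peaks appeared or disappeared at the genes of each complex. The 4 progenitor genes held 14, 14 and 17 peaks in the WT PRO libraries and 13, 13 and 14 in the WT DIFF libraries, with means of 15 ± 1.73 and 13.3 ± 0.577 (SD, n = 3 each). In p27KO the means were 15.5 ± 0.707 at PRO and 11.5 ± 0.707 at DIFF (SD, n = 2 each). The 4 neuronal genes did not gain peaks. They held 33.7 ± 1.53 peaks at WT PRO and 26.7 ± 7.37 at WT DIFF (SD, n = 3 each), where WT DIFF 3 alone held 35 against 21 and 24. In p27KO they held 39 ± 1.41 at PRO and 25 ± 0 at DIFF (SD, n = 2 each). The ATPase genes held 10 ± 2 and 9.67 ± 3.06 peaks in WT, and 12.5 ± 2.12 and 10 ± 0 in p27KO. In p27KO, every PRO library held more peaks than every DIFF library for the progenitor, the neuronal and the ATPase genes, and also over the whole lists. In WT the groups met at 14 peaks for the progenitor genes and overlapped for the neuronal genes.

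The lists also differed in length, and the 10 genes took a share of 0.0642% to 0.0765% of each. The share was 0.0748%, 0.0756% and 0.0746% in WT PRO and 0.0696%, 0.0765% and 0.0699% in WT DIFF. In p27KO it was 0.0763% in both PRO libraries and 0.0681% and 0.0642% at DIFF. Whether list length accounts for the counts was not tested. Over the 57000 highest peaks of each list, the difference of DIFF from PRO at the neuronal genes in p27KO was −4 peaks in place of −14. Counts cannot be compared between genes, because the windows ran from 54.3 kb for Dpf1 to 314 kb for Dpf3, which alone held 18 of the 51 neuronal regions.

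**Figure D1:**
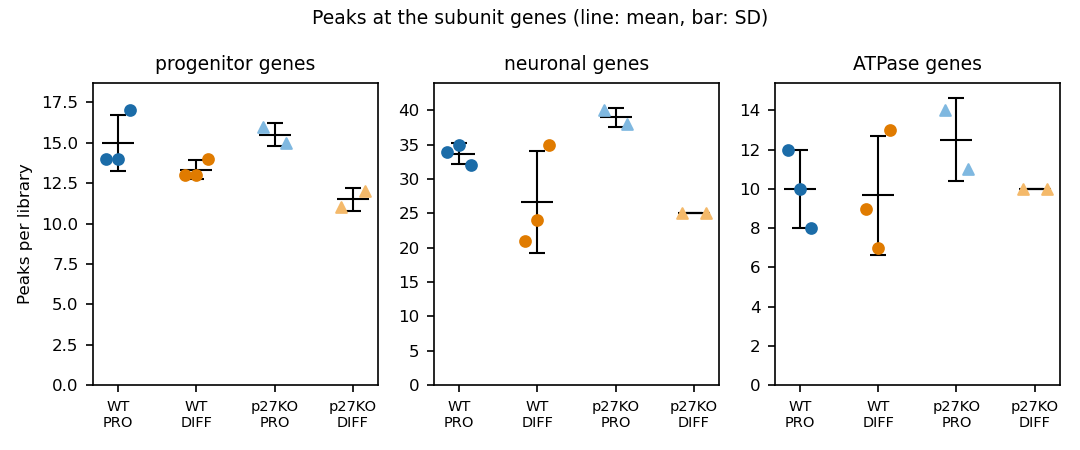
Number of peaks (vertical axis) in each library at the progenitor, neuronal and ATPase genes, by group. Points are libraries, lines are means and bars are SDs; the neuronal genes had 21, 24 and 35 peaks at WT DIFF and 25 in both p27KO DIFF libraries.

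To compare accessibility within the lists, the fold enrichment of each region, the ratio of signal at the summit to the local background, was ranked in its library. The rank is given as a percentile among the regions that held a peak in 5 or more libraries, or as a normal score, and differences of the latter were tested with limma over all 70627 such regions. Of the 85 regions, 52 passed this filter, namely 14 of 17 at progenitor, 28 of 51 at neuronal and 10 of 17 at ATPase genes. A region found in only 1 state passed this filter only if every library of that state held it.

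Every one of the 10 promoters held a peak in 10 of 10 libraries, those of the neuronal subunits included. Actl6a had the most accessible promoter, at a mean percentile of 95.0 over the 10 libraries (range 92.4 to 97.1). Its neuronal counterpart Actl6b had the least accessible one, at 51.9 (range 34.7 to 73.7), and these 2 ranges did not overlap. Between them stood Smarca4 at 82.8, Dpf2 and Dpf3 both at 81.6, Ss18l1 at 80.4, Dpf1 at 78.5, Ss18 at 74.5, Smarca2 at 68.2 and Phf10 at 64.2. The median over the promoters of 14504 genes was 80.1. The ranges of all neighbours in this order overlapped. Within libraries, Actl6a stood above Smarca4 in 10 of 10, Ss18 above Smarca2 in 9, Smarca2 above Phf10 in 8 and Phf10 above Actl6b in 9, while the other neighbours changed places in 3 or more libraries. Progenitor and neuronal genes were interleaved: Phf10 stood below 3 of the 4 neuronal genes and Dpf3 stood level with Dpf2.

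**Figure D2:**
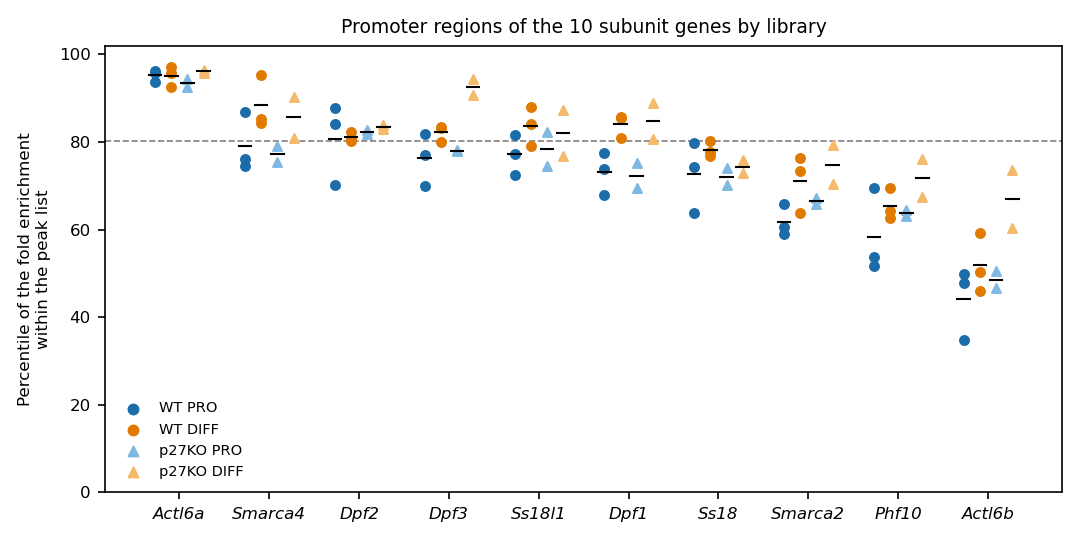
Percentile of the fold enrichment within the peak list (vertical axis) of the promoter region of each gene, in order of the mean over all libraries. Points are libraries, short lines are group means and the dashed line is the median over all promoters (80.1); Actl6a lay between 92.4 and 97.1 and Actl6b between 34.7 and 73.7.

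None of the 10 promoters passed the test between PRO and DIFF in either genotype (limma, adjusted over all regions; 0 of 10 with an unadjusted p under 0.05 in WT and 1 of 10 in p27KO). Of the promoters of 14504 genes, only 4.78% passed in WT and 2.16% in p27KO, and 2179 and 1432 had an unadjusted p under 0.05. Adjusted over the promoters of all genes, 0 of 10 passed again, against 0.793% of all promoters in WT and 0.379% in p27KO. The changes were small and mostly upward. In WT 9 of 10 and in p27KO 10 of 10 were above 0, with medians of 0.20 and 0.25 in normal score, but the median over all promoters was also above 0, at 0.12 and 0.14. The most changed promoter was that of Dpf3 in p27KO, at 0.68 ± 0.21 (SE; adjusted p = 0.0637). Its fold enrichment was 11.0 and 10.5 in the p27KO PRO libraries and 14.0 and 14.4 in the p27KO DIFF libraries. These groups did not overlap, while in WT the values of 10.1, 9.03 and 10.3 at PRO and 8.35, 8.65 and 11.5 at DIFF did. The difference between the genotypes was 0.48 ± 0.28 (SE; limma interaction, adjusted p = 1.00). With the lists cut to 57000 peaks the Dpf3 promoter in p27KO passed the test (adjusted p = 0.0442), the lowest of 0.0442 to 0.291 over all alternatives.

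Among all 52 tested regions, 9 differed between PRO and DIFF in WT, 6 lower and 3 higher at DIFF, against 10.1% lower and 9.15% higher among all regions. In p27KO, 5 were lower and 1 was higher, against 6.48% and 5.83%. The share called among the 10 genes, 17.3% in WT and 11.5% in p27KO, was thus near the 19.2% and 12.3% of all regions. By class, 1 of 14 progenitor, 6 of 28 neuronal and 2 of 10 ATPase regions were called in WT, and 1, 3 and 2 in p27KO. The neuronal calls went in both directions in WT, with 4 lower and 2 higher, while in p27KO 3 were lower and 0 higher. The median change was 0.07 over the progenitor and 0.20 over the neuronal regions in WT, and 0.03 and 0.18 in p27KO, against 0.03 and 0.04 over all regions. When libraries were left out in turn, the progenitor median ran from 0.02 to 0.10 in WT and from −0.07 to 0.10 in p27KO. The neuronal median ran from 0.08 to 0.25 in WT and from 0.15 to 0.26 in p27KO. With all regions found in at least 2 libraries the neuronal medians were 0.03 and 0.06. Some tested regions lay at promoters of other genes. Without these, the progenitor median over 8 regions was −0.0045 in WT and −0.066 in p27KO. The neuronal median over 24 regions was then 0.16 in WT and 0.12 in p27KO. Of the called regions, 4 had peaks in 1 state only (1 of them at Ss18l1, 2 at Dpf3 and 1 at Smarca2). They passed the 5-library filter only through the state in which they were present and stood at the tied lowest rank in the other, so for them the test adds nothing to the presence of the peak, and they are described without it. Among the 48 regions with a peak in both states, 5 were called in WT and 3 in p27KO, or 10.4% and 6.25%, against 16.3% and 9.84% of all such regions. Of the neuronal ones, 1 was lower and 2 were higher in WT, and 1 was lower and 0 higher in p27KO. The 5-library filter was applied again each time a library was left out, for the medians above as for the counts. Regions with peaks in 1 state only then dropped out with any library of that state. Part of any fall in the counts was thus fixed in advance. Without WT PRO 2 or without WT PRO 3 the count of calls in WT was 5. In p27KO it was 2 without either p27KO PRO library and 3 without p27KO DIFF 1.

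None of the 10 promoters and none of the 11 regions at promoters of neighbouring genes was called. The other 31 tested regions held all 9 calls in WT (29.0%) and all 6 in p27KO (19.4%). Calls were likewise more common away from promoters over the whole lists, at 22.4% and 14.6% of regions that were no gene's promoter region, against 4.78% and 2.16% of promoters. The map of peaks along Actl6b, Ss18l1, Dpf3 and Smarca2 shows where 8 of them lay.

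**Figure D3:**
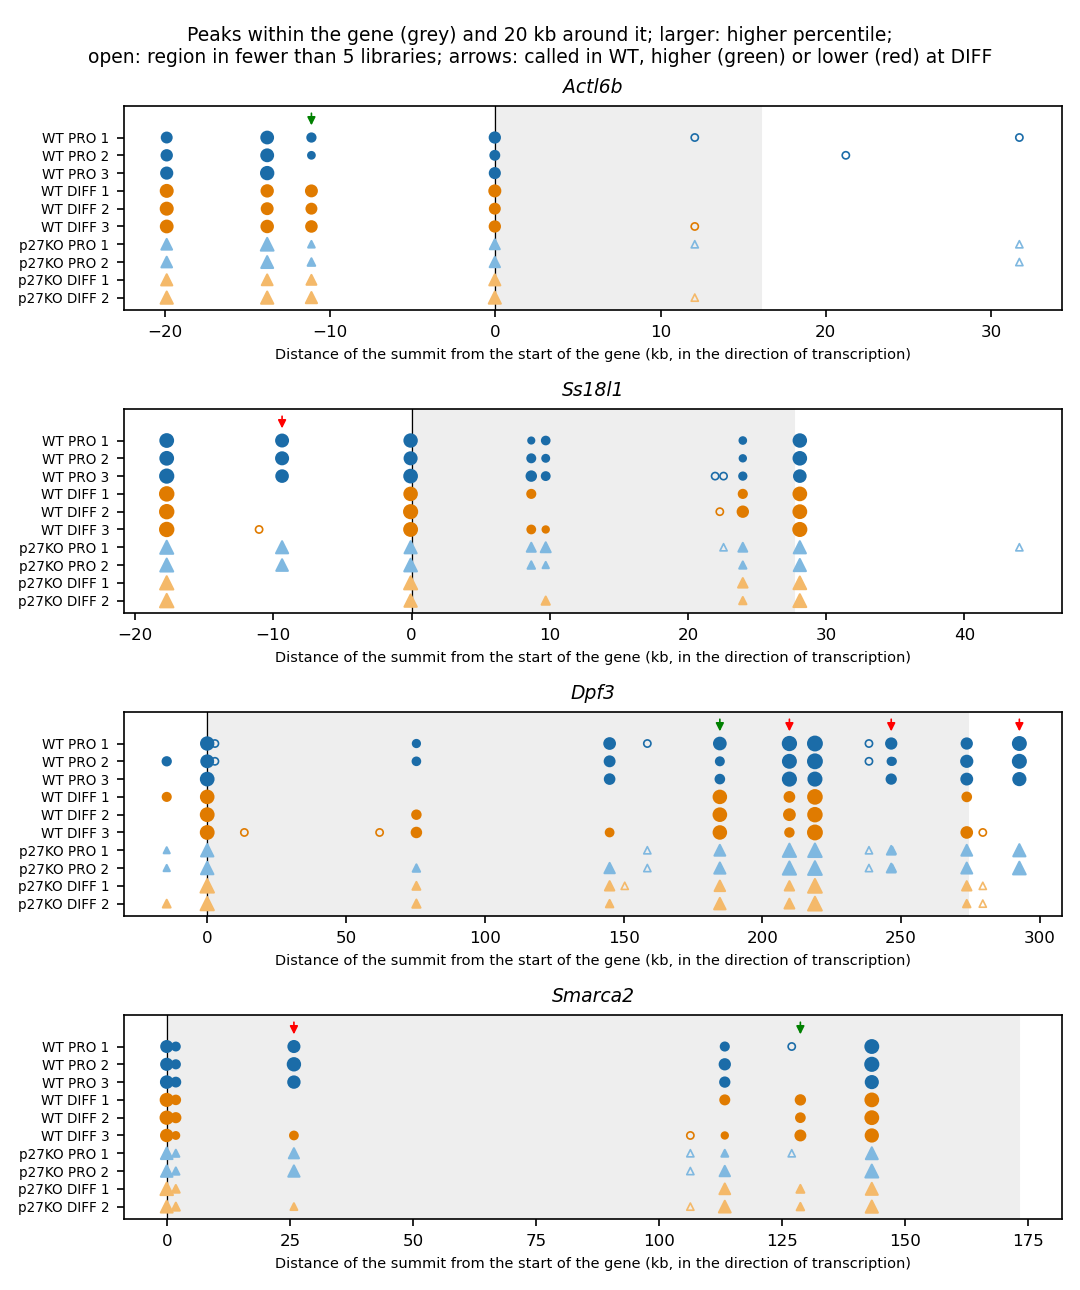
Peaks by distance of the summit from the start of the gene (horizontal axis, kb) in each library (rows). Larger symbols have a higher percentile, open symbols are regions in fewer than 5 libraries, the gene body is grey, and arrows mark regions called in WT, higher (green) or lower (red) at DIFF; the Ss18l1 region at −9.37 kb has symbols in the 5 PRO rows and in no DIFF row.

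Of the actin-related pair, Actl6a lies at chr3:32706298-32726973 (plus strand) and had 3 regions, each found in 10 of 10 libraries, and none was called. The fold enrichments of its promoter region, chr3:32708280-32709258, which lay 2.24 kb inside the gene record at the RefSeq start, were 14.9, 14.3 and 14.7 in WT PRO and 12.9, 13.6 and 14.1 in WT DIFF. In p27KO they were 15.9 and 14.4 at PRO and 14.8 and 17.2 at DIFF. WT DIFF libraries had lower folds than WT PRO libraries throughout, yet the percentiles overlapped, and in normal score they differed by 0.01 ± 0.18 (SE; limma, adjusted p = 0.985). In p27KO the difference was 0.25 ± 0.22 (SE; adjusted p = 0.539).

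Actl6b, on the plus strand at chr5:137553517-137569582, had 7 regions, of which 4 were tested. Its promoter region, chr5:137553326-137553851, had fold enrichments of 6.37, 4.99 and 5.61 in WT PRO and 5.57, 4.16 and 6.14 in WT DIFF. The p27KO values were 6.23 and 6.33 at PRO and 6.11 and 9.66 at DIFF. The promoter of the neuronal subunit was thus open at a moderate level already in proliferating cells. The changes were 0.20 ± 0.19 in WT (SE; limma, adjusted p = 0.526) and 0.49 ± 0.24 in p27KO (SE; adjusted p = 0.225).

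Upstream of Actl6b a region rose at DIFF. At chr5:137541890-137542580, −11.1 kb from the start and in no annotated gene, the fold enrichment was 4.49 and 3.49 in WT PRO 1 and 2, with no peak in WT PRO 3. It was 5.40, 4.16 and 6.40 in WT DIFF. By fold these WT groups overlapped, with WT PRO 1 above WT DIFF 2. The percentiles of 28.5, 15.4 and 5.64 at PRO and 57.7, 46.1 and 53.2 at DIFF did not overlap. The change in WT was 1.12 ± 0.25 (SE; limma, adjusted p = 0.0105). In p27KO the fold enrichment was 3.67 and 3.94 at PRO and 4.83 and 7.49 at DIFF. These groups overlapped neither by fold nor by percentile. The change of 0.98 ± 0.31 (SE) missed the threshold (adjusted p = 0.0641, with 0.00578 to 0.288 over all alternatives). The genotypes differed by −0.13 ± 0.40 (SE; limma interaction, adjusted p = 1.00). The neighbouring region at −13.8 kb held a peak in 10 of 10 libraries and changed by −0.28 ± 0.20 in WT (SE; adjusted p = 0.379).

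Among the PHD-finger proteins of progenitors, Phf10 (chr17:14945009-14961273, minus strand) and Dpf2 (chr19:5896516-5913010, minus strand) had 4 tested regions each, and none was called in either genotype. The Phf10 promoter region, chr17:14960627-14962207, changed by 0.18 ± 0.19 in WT (SE; limma, adjusted p = 0.550) and by 0.23 ± 0.23 in p27KO (SE; adjusted p = 0.586). The Dpf2 promoter region, chr19:5912052-5913344, changed by −0.02 ± 0.19 in WT (SE; adjusted p = 0.967) and by 0.05 ± 0.24 in p27KO (SE; adjusted p = 0.933). A weak second region of Phf10, in an intron at 1.12 kb, held a peak in both p27KO PRO libraries (fold enrichments 3.77 and 4.11) and in neither p27KO DIFF library, but also in 2 of 3 WT DIFF libraries. Of the 8 tested regions of these 2 genes, 5 lay at promoters of neighbouring genes.

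Among those of neurons, Dpf1, at chr7:29303951-29318243 on the plus strand, had 7 tested regions with none called. Its promoter region, chr7:29303531-29304317, had fold enrichments of 9.55, 10.3 and 7.89 in WT PRO and 9.54, 9.27 and 10.9 in WT DIFF. In p27KO they were 9.34 and 9.85 at PRO and 11.8 and 11.3 at DIFF. By fold the groups overlapped in WT and not in p27KO. By percentile they did not overlap in either genotype, with 67.9 to 77.5 against 80.9 to 85.8 in WT and 69.4 and 75.2 against 88.8 and 80.7 in p27KO. The changes of 0.38 ± 0.18 and 0.45 ± 0.22 (SE) did not pass (limma, adjusted p = 0.172 and 0.229).

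Dpf3, on the minus strand at chr12:83213745-83487716, is the longest of the 10 genes and carried 4 of the 6 calls at neuronal genes in WT. The direction differed along the gene, with 3 regions lower at DIFF and 1 higher. The lower regions at 293 and 246 kb had peaks at PRO only and passed the filter through that state, so their direction was fixed in advance. The region with the largest difference was chr12:83194151-83195378, beyond the end of the gene at 293 kb from its start. Its fold enrichments were 11.8, 12.2 and 8.94 in WT PRO and 10.5 and 11.4 in p27KO PRO, from pileups of 41 to 71 reads at the summit, and no DIFF library of either genotype had a peak. In normal score the groups differed by −2.26 in WT and −2.16 in p27KO, with all DIFF libraries at the lowest rank.

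An intronic region, chr12:83277468-83278539 at 210 kb, remained a peak in every library but weakened. Its fold enrichments were 13.0, 11.9 and 11.7 in WT PRO and 4.30, 4.86 and 4.44 in WT DIFF. In p27KO they were 14.2 and 13.3 at PRO and 4.33 and 5.68 at DIFF. The groups stood far apart, with means of 12.2 ± 0.679 and 4.53 ± 0.290 in WT (SD, n = 3 each), and the changes were −1.35 ± 0.20 (SE; limma, adjusted p = 0.000909) and −1.45 ± 0.24 (SE; adjusted p = 0.00319).

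A second intronic region, chr12:83241079-83241556 at 246 kb, had fold enrichments of 6.37, 3.85 and 4.88 in WT PRO and 5.03 and 4.90 in p27KO PRO, with no peak in the 5 DIFF libraries. The differences in normal score, again from DIFF libraries at the lowest rank, were −0.95 in WT and −0.94 in p27KO. This was a weak peak, with pileups of 16 to 22 reads.

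Another intronic region, chr12:83302369-83303451 at 185 kb, went the other way in WT. Its fold enrichments were 8.59, 4.31 and 4.39 at WT PRO and 8.22, 8.10 and 10.5 at WT DIFF. By fold these groups overlapped, with WT PRO 1 above WT DIFF 1 and WT DIFF 2. The percentiles of 67.7, 25.7 and 31.9 against 79.2, 80.6 and 79.0 did not overlap. The change was 1.05 ± 0.26 (SE; limma, adjusted p = 0.0174), and it was lost without WT PRO 2, WT PRO 3, WT DIFF 1 or WT DIFF 2 (adjusted p = 0.0768, 0.0735, 0.0530 and 0.0556, with 0.00219 to 0.0768 over all alternatives). In p27KO, with 7.43 and 7.59 at PRO and 5.35 and 8.04 at DIFF, the groups overlapped and the change was −0.00 ± 0.32 (SE; adjusted p = 0.997). The difference between the genotypes did not pass (−1.05 ± 0.42, SE; limma interaction, unadjusted p = 0.0282, adjusted p = 1.00).

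Ss18, a coactivator subunit, carried the only call at a progenitor gene. The region lay in an intron 27.9 kb from the start on chromosome 18. Its fold enrichments were 10.7, 11.3 and 10.3 in WT PRO, 3.29 and 5.99 in WT DIFF 1 and 3, and there was no peak in WT DIFF 2. In p27KO they were 13.9 and 11.6 at PRO and 5.11 in DIFF 2, with no peak in DIFF 1. All PRO libraries stood above all DIFF libraries, and the change was −1.43 ± 0.30 in WT (SE; limma, adjusted p = 0.00632) and −1.86 ± 0.36 in p27KO (SE; adjusted p = 0.00715). The p27KO call was lost without p27KO PRO 1 or p27KO DIFF 1 (adjusted p = 0.0528 and 0.0738, with 0.00283 to 0.0738 over all alternatives). The Ss18 promoter changed by 0.17 ± 0.18 in WT and 0.07 ± 0.22 in p27KO (SE; adjusted p = 0.562 and 0.885).

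Ss18l1, on the plus strand at chr2:180042509-180070201, is the neuronal counterpart, and its promoter region, chr2:180041909-180043472, is shared with the proteasome gene Psma7, so its signal cannot be given to either gene alone. This promoter changed by 0.24 ± 0.19 in WT and 0.15 ± 0.24 in p27KO (SE; limma, adjusted p = 0.425 and 0.758). A region at −9.37 kb, chr2:180032867-180033602, which lies within the gene Lsm14b, was a peak only at PRO. Its fold enrichments were 9.14, 9.38 and 7.72 in WT PRO and 10.2 and 8.52 in p27KO PRO, and 0 of 5 DIFF libraries had a peak. The differences in normal score were −1.85 in WT and −1.90 in p27KO. In the intron at 8.66 kb a weak region was found in 3 WT PRO, 2 WT DIFF and 2 p27KO PRO libraries and in 0 p27KO DIFF libraries, with a change of −0.78 ± 0.32 in p27KO (SE; adjusted p = 0.146).

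Of the ATPase genes, Smarca2 (chr19:26605050-26778322, plus strand) carried 1 call in each direction, and both regions were called in both genotypes, although the second had peaks in 1 state only. The region chr19:26630715-26631078, in an exon at 25.8 kb, had fold enrichments of 7.48, 10.2 and 7.32 in WT PRO and 4.02 in WT DIFF 3, with no peak in the other WT DIFF libraries. In p27KO it had 6.47 and 7.84 at PRO and 3.12 in DIFF 2 alone. PRO and DIFF libraries did not overlap, and the changes were −1.42 ± 0.21 (SE; limma, adjusted p = 0.000970) and −1.27 ± 0.26 (SE; adjusted p = 0.00904). The p27KO call was lost without p27KO PRO 2 or p27KO DIFF 1 (adjusted p = 0.0604 and 0.0889, with 0.00384 to 0.0889 over all alternatives).

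The intronic region chr19:26733655-26733932, at 129 kb, was a peak only at DIFF. No PRO library had a peak there, and the fold enrichments were 4.05, 3.24 and 5.71 in WT DIFF and 3.31 and 3.69 in p27KO DIFF, from pileups of 12 to 26 reads. The differences in normal score were 1.38 in WT and 1.07 in p27KO, with all PRO libraries at the lowest rank. The Smarca2 promoter changed by 0.26 ± 0.18 in WT and 0.25 ± 0.22 in p27KO (SE; adjusted p = 0.341 and 0.527).

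Smarca4, at chr9:21616169-21704230 on the plus strand, had 4 tested regions and none was called. Its promoter region, chr9:21615634-21616832, had fold enrichments of 9.68, 10.0 and 11.5 in WT PRO, 9.31, 12.6 and 12.0 in WT DIFF, 10.4 and 10.6 in p27KO PRO and 9.63 and 14.3 in p27KO DIFF. By fold the groups overlapped in both genotypes, and by percentile in WT alone, since p27KO had 75.4 and 79.0 at PRO and 80.9 and 90.2 at DIFF. The changes were 0.42 ± 0.23 and 0.34 ± 0.28 (SE; limma, adjusted p = 0.243 and 0.507). An intronic region at 17.2 kb, near an internal start site, held a weak peak in 3 of 3 WT DIFF libraries (fold enrichments 3.29, 3.01 and 4.87) and in none of the other 7 libraries, and it was not tested.

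**Figure D4:**
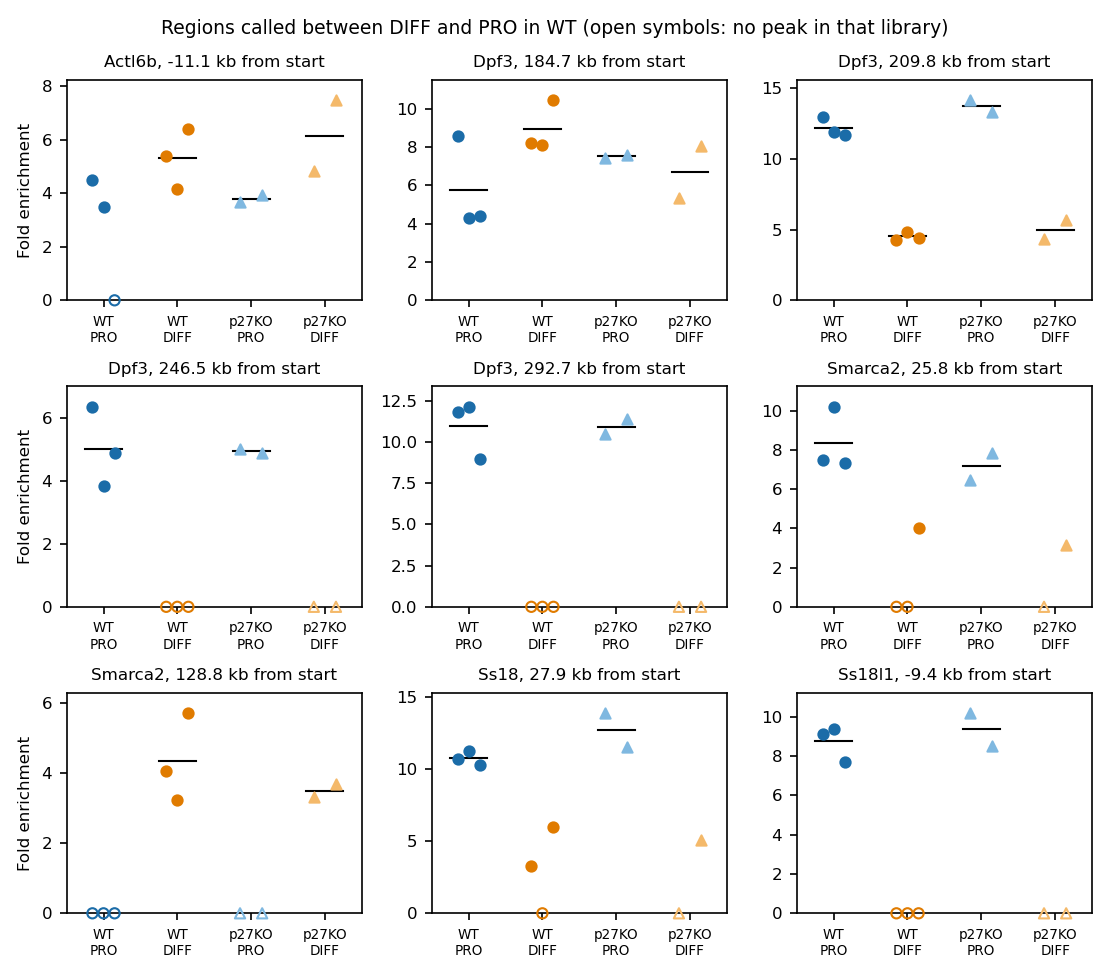
Fold enrichment (vertical axis) in each library of the 9 regions called between DIFF and PRO in WT, by group. Filled points are libraries with a peak, open points at 0 are libraries without one, and lines are means of groups in which every library had a peak; the Dpf3 region at 293 kb and the Ss18l1 region at −9.37 kb had no peak in any of the 5 DIFF libraries.

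Presence was also counted over all regions found in at least 2 libraries, of which the 10 genes had 71. In WT, 3 of them held a peak in every PRO and no DIFF library, against 4.32% of all 99231 such regions, and 2 did the opposite, against 1.86%. In p27KO 12 regions were lost, against 10.9%, and 2 were gained, against 3.32%. Of the 12 lost regions in p27KO, 10 were at neuronal genes, which held 40 of the 71 regions, and 5 of these were at Dpf3. With lists of 57000 peaks 7 were lost. Beside the regions described above, the lost ones were at 31.7 kb of Actl6b, at 13.2 and 31.5 kb of Dpf1, at 159, 238 and 247 kb of Dpf3 and at 10.6 kb of Smarca4. Their fold enrichments in p27KO PRO ran from 2.36 to 8.57, where the medians of the 2 lists were 5.27 and 5.39. Since peaks in 2 libraries were enough to be counted, a region could enter through 1 group alone. The Dpf1 region at 13.2 kb had peaks in the 2 p27KO PRO libraries only, and the Smarca4 region at 17.2 kb in WT DIFF only. Their loss or gain was thus fixed in advance. The shares over all regions rest on the same filter. The Dpf3 region at 279 kb was gained, at 4.08 and 3.98 in p27KO DIFF, and also held a peak of 6.77 in WT DIFF 3. The 3 regions lost in WT were also lost in p27KO, and all were at neuronal genes (the Dpf3 regions at 246 and 293 kb and the Ss18l1 region at −9.37 kb). The region of Smarca2 at 129 kb was the only one gained in both. The 2 genotypes cannot be compared by these counts, because p27KO had 2 libraries per state and WT had 3. Without WT DIFF 3 or without WT PRO 3, 7 regions were lost in WT. Leaving out a library makes the condition easier to meet, so this count could only stay at 3 or rise.

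The last question was whether loss of p27 altered the change at these genes. The interaction of genotype and state was called at 0 of the 52 regions (limma; 2 with an unadjusted p under 0.05), against 0% of all regions. This test had little power at 2 or 3 libraries per group when few regions changed. On simulated data with changes of 1.5 in normal score, it recovered 0% of the changed regions when 200 changed. When 14000 changed, it recovered 70.2%. How many regions differ in their response is not known here, so the count does not show that the genotypes responded alike. Between genotypes, 0 of 52 differed at PRO (0 with an unadjusted p under 0.05), against 0.034% of all regions, and 0 of 52 at DIFF (3 with an unadjusted p under 0.05), against 0.0156%. All 6 regions called in p27KO were also called in WT, in the same direction. For the Dpf3 region at 293 kb, the Ss18l1 region at −9.37 kb and the Smarca2 region at 129 kb this direction was fixed in advance. They had peaks in 1 state only and passed the filter through the libraries of both genotypes in that state. Both contrasts share 1 estimate of the spread but no library. Of the 3 further regions called in WT only, the Actl6b region at −11.1 kb and the Dpf3 region at 246 kb had changes of like size in p27KO, and the Dpf3 region at 185 kb did not. The Dpf3 region at 246 kb had peaks at PRO only, so the direction of its change was likewise fixed in advance.

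**Figure D5:**
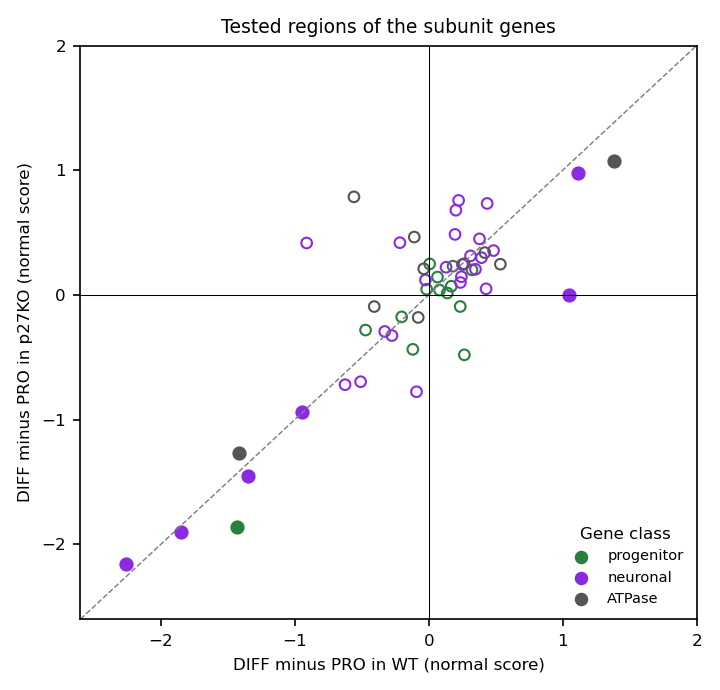
Change in normal score from PRO to DIFF in p27KO (vertical axis) against that in WT (horizontal axis) for the 52 tested regions, coloured by class of gene. Filled points were called in either genotype and the dashed line marks equal changes; the filled point away from it, at 1.05 in WT and −0.00 in p27KO, is the Dpf3 region at 185 kb.

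Of 20 other genes for subunits of BAF and related SWI/SNF complexes, none of which belongs to the exchange above, every one had a tested promoter region, and 19 held a peak in 10 of 10 libraries. None was called in either genotype (limma; 0 of 20 also after adjustment over promoters). In WT 18 of 20 and in p27KO 19 of 20 changes were above 0, with medians of 0.21 and 0.24. Of all promoters, 67.5% and 69.2% were above 0, with medians of 0.12 and 0.14, and 4.78% and 2.16% were called. The 3 with the largest changes in WT were Smarcd1 at 0.49 ± 0.17 (SE; adjusted p = 0.0673), Arid1b at 0.43 ± 0.19 (SE; adjusted p = 0.152) and Bcl11a at 0.43 ± 0.21 (SE; adjusted p = 0.194). Smarcd1 is a core subunit, Arid1b a DNA-binding subunit and Bcl11a a zinc-finger protein associated with the complex.

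Over the 10 libraries, the promoters whose normal scores most resembled those of Actl6a were Pmepa1 (Pearson r = 0.905), Dok5 (0.893) and N4bp1 (0.890), among 14504 genes. For Actl6b they were Cox18 (0.911), Zfp62 (0.907) and E2f4 (0.899). The points are libraries that share group and list length, and the coefficients are given as a description.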

How the data were processed

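ATAC-seq was performed by the study on 6 WT libraries (3 PRO, 3 DIFF) and 4 p27KO libraries (2 PRO, 2 DIFF). Per the study's methods, the authors clipped reads with Cutadapt, trimmed them with Trimmomatic, mapped them to GRCm38 with Bowtie2, ran Picard to mark duplicates and used MACS2 for narrow peaks in each library (no model, FDR 0.05). Tool versions, the read shift and the extension size are not given in the sources used here. The deposited lists hold, as the authors' caller wrote them, a fold enrichment ratio over the local background, −log10 p-values, −log10 q-values and a display score, which is the −log10 q-value rescaled and was not used. Read alignments were not used here, so libraries were compared by rank and depth is unknown.

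Peaks overlapping by at least 1 bp were merged into regions. In each library the highest fold enrichment per region was ranked and converted to a normal score, with absent peaks tied at the bottom. Regions that 5 or more libraries held were tested in limma 3.58.1 (R 4.3.3) with 1 mean per group, moderated variances and Benjamini-Hochberg adjustment over 70627 regions, and called at an adjusted p under 0.05. The script was tested on simulated data. A promoter was the tested region nearest the 5′ end of the GENCODE gene record, within 3 kb, a definition set after the data were seen. Presence was counted over regions found in at least 2 libraries. Summit pileups were solved from the fold enrichment and −log10 p-value of all 552 peaks (tolerance 0.001).

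The members and lists were chosen with earlier results of these data known. Regions named are all promoters, all regions called in a contrast or wholly gained or lost in a genotype, and, of the other subunits, those called and the 3 most changed in WT. Like patterns are the 3 promoters of highest Pearson r. The −13.8 kb region of Actl6b was named, and regions with peaks in 1 state only were counted apart, after the values were seen. In WT, deviations from the group means correlated weakly, at 0.0328 to 0.0647 between same-numbered libraries. Between differently numbered WT libraries of the 2 states the correlation was −0.0508 to −0.00477. In p27KO it was −0.141 for the same numbers, a single value because 2 libraries mirror each other around their mean. No pairing was used.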

Additional observations from a re-analysis of the deposited data

How the results depend on the processing

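Of 181 values of the counts, medians and peak differences under alternatives other than leaving out a library, 158 stayed within a set margin. The margin was a fixed factor for counts and the SD between libraries for medians and peak differences. It was wide, since the neuronal peak difference in WT was counted as kept from −9.667 to −2.667. The counts called for the interaction, between genotypes and at the promoters in WT were 0 throughout and say little about robustness. Requiring a peak in all 10 libraries left 2 calls in WT and 1 in p27KO, where regions found in 1 state cannot enter, and moved the neuronal median to 0.2873 and 0.2831. With regions in at least 2 libraries it was 0.03229 in WT and 0.05607 in p27KO, and ranking by −log10 p-value gave 0.05071 in WT. With summit windows of 100 bp the progenitor median in p27KO was −0.02741. With 57000 peaks per list, DIFF minus PRO was −0.3333 progenitor peaks in WT, −2.5 in p27KO and −4 neuronal peaks in p27KO (−4 and −14 for both classes in p27KO in the full lists), 1 promoter was called in p27KO, 1 region was gained in WT and 7 were lost in p27KO. At a −log10 q-value of at least 3, the neuronal difference in p27KO was −12, 0 regions were gained in WT and 1 in p27KO. With windows of 5 kb or 3 kb the progenitor and neuronal differences in p27KO were −3 and −9.5, and at 5 kb 1 region was lost in WT and 1 gained in p27KO.

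Ranking by −log10 p-value reversed the small changes of the promoters of Actl6a (−0.04497) and Dpf2 (0.1487) in WT and of the Dpf3 region at 185 kb in p27KO (0.04147), and requiring all 10 libraries that of Actl6a (−0.00304). The replicate block gave 9 calls in WT and 6 in p27KO, as did the crossed block, chosen after seeing the data. Without it the counts were the same, and the shared numbers are no evidence of pairing.

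Leaving out each library in turn gave 5 to 8 calls in WT and 2 to 6 in p27KO. The progenitor median in p27KO was −0.06846 to 0.09712 and the neuronal median in WT 0.07759 to 0.2484. Between 3 and 7 regions were lost in WT and 2 to 4 gained in p27KO. The 5-library filter was applied again each time, so regions with peaks in 1 state only left the test with any library of that state. Part of the fall in calls was thus fixed in advance. Counts of lost or gained regions could only stay or rise, since fewer libraries had to meet the condition. The sign turned for Actl6a (−0.1011 to 0.133), Phf10 at 1.12 kb (−0.08822 to 0.5762), Dpf2 (−0.2067 to 0.1185) and Ss18l1 at 8.66 kb (−0.4244 to 0.104) in WT, and for Dpf3 at 185 kb (−0.1491 to 0.1596) and the Ss18l1 promoter (−0.05851 to 0.3559) in p27KO. The causes were not tested. Member peaks had a median pileup of 32 to 45 reads, and a peak near the calling limit can be missed in a shallower library.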

Other observations

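A pair of intronic regions outside the naming rule was chosen after the values were seen. The Smarca2 region at 113 kb (chr19:26718204-26718569) had fold enrichments of 4.43, 6.35 and 4.88 in WT PRO, 3.79 and 3.17 in WT DIFF 1 and 3 with no peak in WT DIFF 2, 3.83 and 6.37 in p27KO PRO and 5.61 and 8.80 in p27KO DIFF. By percentile the WT groups overlapped, and both p27KO DIFF libraries stood above both p27KO PRO libraries. The interaction was 1.34 ± 0.47 (SE; limma, unadjusted p = 0.0161, adjusted p = 1.00).

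The Dpf3 region at 145 kb (chr12:83342481-83343255) had fold enrichments of 6.93, 5.89 and 5.13 in WT PRO and 4.02 in WT DIFF 3 alone. In p27KO it had a peak of 6.37 in PRO 2 and peaks of 4.33 and 3.69 in DIFF. The interaction was 1.33 ± 0.62 (SE; limma, unadjusted p = 0.0561, adjusted p = 1.00).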
